A study of Glycine max with 12 samples.

Results

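The 4 genes described here encode abundant or antinutritional proteins of soybean (Glycine max) seeds: the Kunitz trypsin inhibitors KTI1 and KTI3, the seed lectin Le1 and the allergen P34. They were chosen by name and taken by gene identifier from a table of 47095 genes, and all 4 passed the filter on low counts, which left 34252 tested genes. Transcript counts came from 12 RNA libraries of seeds sampled at H3, a stage name that the labels leave undefined. They comprised 3 libraries from seeds overexpressing GmZF351, 3 from seeds overexpressing GmZF392, 3 from seeds overexpressing GmNFYA and 3 from the wild type, cultivar Jack. GmZF351 and GmZF392 are zinc finger genes, GmNFYA encodes a nuclear factor Y subunit, and all are known as regulators of seed oil. The labels name no promoter for the transgenes. Library titles within an overexpressor share a code, so its 3 libraries may come from 1 transgenic line, and an effect of that line and one of the transgene cannot be told apart. Nothing states that the libraries came from separate plants, so the p-values below reflect the variation among these libraries, which may be technical.

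Kunitz trypsin inhibitors bind and block trypsin-like serine proteases, act in seed storage and defence, and are among the proteins that make raw soybean meal hard to digest. KTI3 encodes the main Kunitz inhibitor protein of the soybean seed, and KTI1 is a relative of it. Le1 encodes soybean agglutinin, a lectin that binds galactose-type sugars and lies in protein storage vacuoles of the cotyledon. P34 is a vacuolar protein of the papain family of cysteine proteases in which the catalytic cysteine is replaced by glycine, and it is a major soybean allergen.

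Positions are those of the deposited table, in the Williams 82 annotation named in each identifier, whose suffix is left off other genes. KTI1 (Glyma.01G095000.Wm82.a4.v1) lies on chromosome 1 at 29356335 to 29357415, plus strand, as a single exon of 1081 bp. KTI3 (Glyma.08G341500.Wm82.a4.v1) lies on chromosome 8 at 45109830 to 45110755, plus strand, as a single exon of 926 bp. Le1 (Glyma.02G012600.Wm82.a4.v1) lies on chromosome 2 at 1124615 to 1125704, plus strand, as a single exon of 1090 bp. P34 (Glyma.08G116300.Wm82.a4.v1) is also on chromosome 8, at 8938682 to 8941009 on the minus strand, 36.2 Mb from KTI3, with 1652 bp of exon in 4 exons. No other gene of the table overlaps any of them, and RefSeq gives each the same symbol. The table names no untranslated regions.

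The libraries held 17809547 to 22652420 counted fragments over 38267 to 39478 detected genes. Each overexpressed gene was highest in its own genotype. There, GmZF351 had 936 ± 63.1 CPM (wild type 18.7 ± 1.6), GmZF392 had 648 ± 95.7 CPM (wild type 70.3 ± 1.86) and GmNFYA had 308 ± 35.1 CPM (wild type 41.8 ± 1.41). GmZF351 also rose 2.13-fold in the GmZF392 overexpressor, to 39.9 ± 1.92 CPM (adjusted p = 4.3e-04). CPM is the fragment count of a gene scaled to the library total after TMM normalization, and means are given ± SD (n = 3). Levels of different genes are compared as FPKM, which is CPM per kilobase of exon. Fragment counts and shares, where given, are not scaled for exon length. Tests are edgeR quasi-likelihood F-tests with Benjamini-Hochberg adjustment over all 34252 genes and a threshold of 0.05, and "rose" and "fell" refer to that threshold. In bulk seed RNA, fewer cells of a type and less RNA per cell cannot be told apart.

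KTI3, Le1, P34 and KTI1 stood in that order of FPKM in every library. KTI3 averaged 4677 FPKM in the GmZF351 overexpressor, 4463 in the GmZF392 overexpressor, 3687 in the GmNFYA overexpressor and 2779 in the wild type. By FPKM it was the most abundant of all genes in both zinc finger overexpressors, the 2nd in the GmNFYA overexpressor and the 4th in the wild type. Le1 averaged 564, 764 and 554 FPKM in the GmZF351, GmZF392 and GmNFYA overexpressors and 361 FPKM in the wild type. P34 averaged 194, 191 and 93.7 FPKM in the same 3 overexpressors and 57.9 FPKM in the wild type, and KTI1 averaged 12.7, 36.5 and 29.8 FPKM in them and 2.8 FPKM in the wild type. The ranges of adjacent genes in this order did not overlap in any genotype. KTI3 alone supplied 75.5% to 85.1% of the fragments of the 4 genes, whose sum reached at most 0.635% of a library.

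KTI1 was the least abundant of the 4 and had the largest fold changes among them. In the GmZF351 overexpressor it had 11.1, 17.9 and 12.2 CPM, in the GmZF392 overexpressor 34.3, 33.6 and 50.4 CPM, in the GmNFYA overexpressor 31.2, 30.8 and 34.5 CPM, and in the wild type 2.7, 2.36 and 4.03 CPM. Every overexpressor library lay above every wild-type library, and the GmZF351 libraries lay between the wild type and the libraries of the other overexpressors. The wild-type values rest on 52 to 73 fragments per library and the overexpressor values on 230 to 922. Against the wild type, KTI1 rose 4.55-fold in the GmZF351 overexpressor (log2 2.19, SE 0.25, adjusted p = 2.4e-04). It rose 13.1-fold in the GmZF392 overexpressor (log2 3.71, SE 0.25, adjusted p = 2.2e-06) and 10.7-fold in the GmNFYA overexpressor (log2 3.42, SE 0.25, adjusted p = 4.7e-06). Of the 34252 genes, 103, 55 and 40 had a larger positive log2 fold change than KTI1 in the GmZF351, GmZF392 and GmNFYA comparisons.

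The overexpressors also differed from each other in KTI1. The gene was 2.87-fold higher in the GmZF392 than in the GmZF351 overexpressor (log2 1.52, SE 0.22, adjusted p = 0.0058), and 2.35-fold higher in the GmNFYA than in the GmZF351 overexpressor (log2 1.23, SE 0.22, adjusted p = 0.015). In both cases the libraries did not overlap. The first call was lost without GmZF351 library 3 (adjusted p = 0.0615) and with only the 2 genotypes fitted (0.0545). The second was lost without GmZF351 library 1 (0.0523) or 3 (0.0964) and without GmNFYA library 2 (0.0535) or 3 (0.0659). Between the GmNFYA and GmZF392 overexpressors the libraries overlapped and the difference did not pass (0.817-fold, 95% interval 0.593 to 1.13, adjusted p = 0.701).

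**Figure D1:**
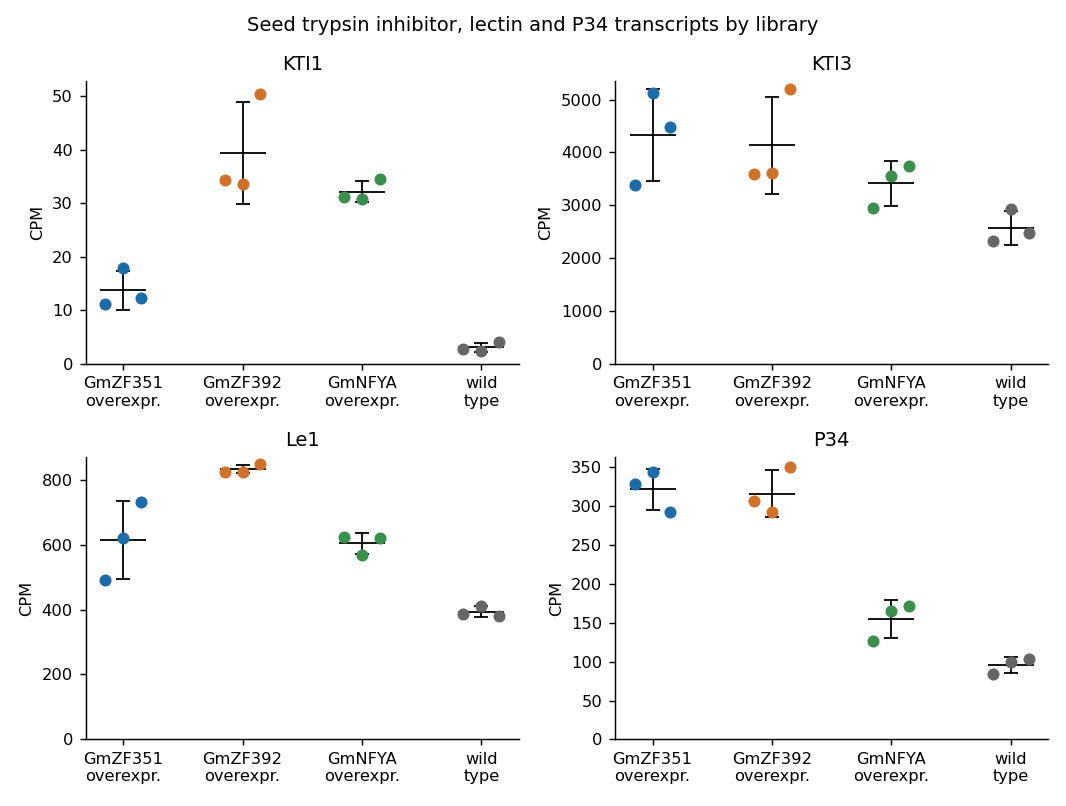
Level of each gene in each library, in CPM, by genotype (points: libraries; long line: mean; error bar: SD, n = 3). KTI1 ran from 2.36 to 4.03 CPM in the wild type and from 11.1 to 50.4 CPM in the overexpressors, and the closest approach of an overexpressor to the wild type was in KTI3, with GmNFYA library 1 at 2944 CPM and wild-type library 2 at 2934 CPM.

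KTI3 was higher in all overexpressor libraries than in any wild-type library, but no comparison against the wild type passed the threshold. It had 3393, 5121 and 4480 CPM in GmZF351 overexpressor libraries, 3594, 3607 and 5197 CPM in the GmZF392 overexpressor, 2944, 3559 and 3739 CPM in the GmNFYA overexpressor, and 2317, 2934 and 2469 CPM in the wild type. The 3 overexpressors overlapped one another, and the lowest GmNFYA library lay just above the highest wild-type library. Against the wild type KTI3 stood 1.68-fold higher in the GmZF351 overexpressor (95% interval 1.24 to 2.28, adjusted p = 0.0869), 1.61-fold in the GmZF392 overexpressor (1.19 to 2.17, adjusted p = 0.133) and 1.33-fold in the GmNFYA overexpressor (0.98 to 1.79, adjusted p = 0.465). Over all 4 genotypes it did not pass either (adjusted p = 0.171). The GmZF351 comparison passed without GmZF351 library 1 (adjusted p = 0.045).

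KTI3 has the shortest exon sequence of the 4 genes, and its level moved with a trend of the libraries with exon length. The trend is the smoothed log2 deviation of a library from the average of all 12 at a given exon length. At the length of KTI3 it was -0.16, 0.43 and 0.04 in GmZF351 libraries 1, 2 and 3, -0.13, -0.18 and 0.23 in the GmZF392 libraries, -0.36, -0.03 and 0.03 in the GmNFYA libraries, and 0.04, 0.22 and 0.03 in the wild-type libraries. Within each overexpressor the library with the lowest KTI3 level had the lowest trend value or, in the GmZF392 overexpressor, one of the 2 below 0. With the trend removed, KTI3 stood at 3781, 3800 and 4355 CPM in GmZF351 overexpressor libraries, 3925, 4094 and 4420 CPM in the GmZF392 overexpressor, 3780, 3633 and 3663 CPM in the GmNFYA overexpressor, and 2249, 2516 and 2417 CPM in the wild type. The coefficient of variation became 8.2%, 6.06% and 2.1% in the GmZF351, GmZF392 and GmNFYA overexpressors and 5.63% in the wild type. As counted it was 20.2%, 22.3%, 12.2% and 12.5%. That of KTI1 became 9.89% and 11% in the GmZF351 and GmZF392 overexpressors, against 26.8% and 24.1% as counted. It became 9.08% in the GmNFYA overexpressor and 33.7% in the wild type, against 6.31% and 29.2%.

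With the trend entered as an offset in the edgeR fit, KTI3 passed in all 3 comparisons against the wild type. It stood at log2 0.73 in the GmZF351 (adjusted p = 0.00259), 0.79 in the GmZF392 (adjusted p = 9.9e-04) and 0.62 in the GmNFYA overexpressor (adjusted p = 0.0103). Without the offset these were 0.75, 0.68 and 0.41, so the offset moved the fold changes as well as the spread. The DESeq2 Wald test also passed KTI3 in the GmZF351 (adjusted p = 0.00672) and GmZF392 overexpressors (adjusted p = 0.0222). Whether the trend arises from RNA quality, library preparation or the seeds was not tested.

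**Figure D2:**
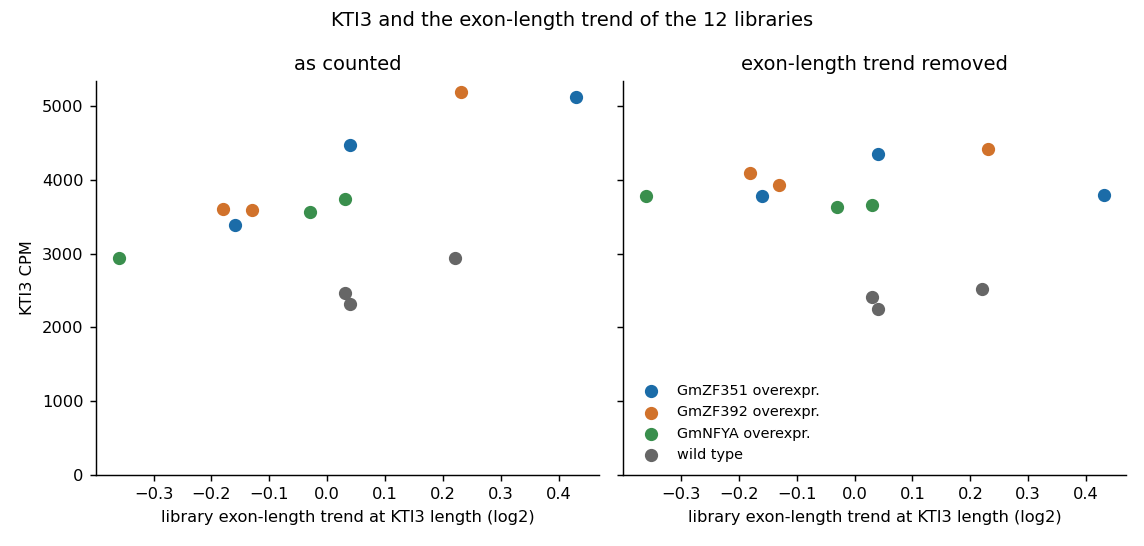
KTI3 level in CPM (vertical axis) against the exon-length trend of the same library at the length of KTI3 (horizontal axis, log2), as counted (left) and with the trend removed (right), 1 point per library, coloured by genotype. As counted the overexpressor libraries spread from 2944 to 5197 CPM; with the trend removed they lie between 3633 and 4420 CPM, and the wild-type libraries between 2249 and 2516 CPM.

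The 2 inhibitor genes did not keep a fixed proportion. In FPKM, KTI3 exceeded KTI1 357, 333 and 429 times in the GmZF351 libraries, 122, 126 and 120 times in the GmZF392 libraries, 110, 135 and 126 times in the GmNFYA libraries, and 1002, 1454 and 715 times in the wild-type libraries. The GmZF351 ratios lay between those of the wild type and those of the other overexpressors, which overlapped each other.

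Le1 rose in the GmZF392 overexpressor. It had 492, 620 and 732 CPM in GmZF351 overexpressor libraries, 825, 825 and 847 CPM in the GmZF392 overexpressor, 624, 567 and 620 CPM in the GmNFYA overexpressor, and 386, 412 and 381 CPM in the wild type. All overexpressor libraries lay above the wild type, the GmZF392 libraries lay above all others, and the GmZF351 and GmNFYA libraries overlapped. Against the wild type Le1 was 2.12-fold higher in the GmZF392 overexpressor (log2 1.08, SE 0.16, adjusted p = 0.00146). In the GmZF351 overexpressor it stood 1.56-fold higher (95% interval 1.24 to 1.97), just short of the threshold (adjusted p = 0.0514), and in the GmNFYA overexpressor 1.54-fold (1.22 to 1.94, adjusted p = 0.0772).

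Both of these Le1 differences passed with exon-length offsets (adjusted p = 0.0241 in the GmZF351 overexpressor and 0.00682 in the GmNFYA overexpressor) and with the DESeq2 Wald test (3.5e-04 and 9.0e-04). Without GmZF351 library 1 the first also passed in edgeR (adjusted p = 0.0179). The offsets did not narrow the spread of Le1 in the overexpressors as they did that of KTI3: its coefficient of variation with the trend removed was 19.8%, 10.2% and 14.3% in the GmZF351, GmZF392 and GmNFYA overexpressors, against 19.5%, 1.56% and 5.28% as counted. Le1 did not pass between any pair of overexpressors. It stood 1.35-fold higher in the GmZF392 than in the GmZF351 overexpressor (95% interval 1.07 to 1.71, adjusted p = 0.412) and 0.725-fold in the GmNFYA relative to the GmZF392 overexpressor (0.575 to 0.916, adjusted p = 0.284).

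P34 rose in all 3 overexpressors, with similar levels in the zinc finger overexpressors and a lower one in the GmNFYA overexpressor, where the call did not hold under most alternatives. It had 328, 344 and 292 CPM in GmZF351 overexpressor libraries, 306, 292 and 350 CPM in the GmZF392 overexpressor, 127, 165 and 172 CPM in the GmNFYA overexpressor, and 84.3, 99.6 and 103 CPM in the wild type. The zinc finger libraries overlapped each other and lay above all GmNFYA libraries, which lay above all wild-type libraries. Against the wild type P34 was 3.36-fold higher in the GmZF351 overexpressor (log2 1.75, SE 0.16, adjusted p = 4.7e-05), 3.3-fold in the GmZF392 overexpressor (log2 1.72, SE 0.16, adjusted p = 3.5e-05) and 1.62-fold in the GmNFYA overexpressor (log2 0.69, SE 0.16, adjusted p = 0.0471). The GmNFYA call was lost on leaving out wild-type library 1 (adjusted p = 0.19), 2 (0.153) or 3 (0.105) or GmNFYA library 2 (0.208) or 3 (0.211), with no filter on low counts (0.058) and with only the 2 genotypes fitted (0.0818).

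The difference between the overexpressors was itself tested. P34 was 0.482-fold in the GmNFYA relative to the GmZF351 overexpressor (log2 -1.05, SE 0.16, adjusted p = 0.00478; 0.0742 with only these 2 genotypes fitted) and 0.49-fold relative to the GmZF392 overexpressor (log2 -1.03, SE 0.16, adjusted p = 0.00412). Between the GmZF392 and GmZF351 overexpressors the ratio was 0.983, with a 95% interval of 0.777 to 1.25 (adjusted p = 0.972).

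Counted together, 2 of the 4 genes rose in the GmZF351 overexpressor, where 1.13% of all tested genes rose and 2.17% changed in either direction. In the GmZF392 overexpressor 3 of the 4 rose, against 1.67% of all tested genes (2.2% in either direction), and in the GmNFYA overexpressor 2 of the 4, against 0.966% (1.56% in either direction). The median log2 fold change of the 4 genes was 1.25, 1.4 and 0.66 in the GmZF351, GmZF392 and GmNFYA overexpressors, and that of all tested genes was 0.01, -0.01 and -0.01. KTI1 and P34 rose in all 3, as did 0.488% of tested genes, but without any 1 of 5 libraries, named above for P34, the GmNFYA count was 1 of 4. All 4 genes had each overexpressor above the wild type with no overlap, as had 2.26% of tested genes; singly, this held for 7.83%, 9.34% and 11.1% of genes in the GmZF351, GmZF392 and GmNFYA comparisons. These 3 comparisons share the same wild-type libraries. The 4 genes were chosen with earlier results of these data known. Their counts beside the shares of all genes, here and below, are therefore descriptions and not an independent comparison.

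Between overexpressors, 1 of the 4 genes, KTI1, passed for GmZF392 relative to GmZF351, where 0.4% of tested genes passed. In that comparison KTI1 and Le1 had no overlap of libraries, both higher, as had 7.84% of tested genes. For GmNFYA relative to GmZF351 2 of 4 passed, KTI1 higher and P34 lower, against 1.1% of tested genes, and the same 2 had no overlap, against 17.9% of tested genes in either direction. For GmNFYA relative to GmZF392 only P34 passed of the 4, against 1.06%, and Le1 and P34 had no overlap, both lower, as had 9.51%. Over all 4 genotypes in 1 test KTI1 (adjusted p = 4.6e-06), P34 (3.9e-05) and Le1 (0.00708) passed in the edgeR fit, against 3.36% of tested genes.

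**Figure D3:**
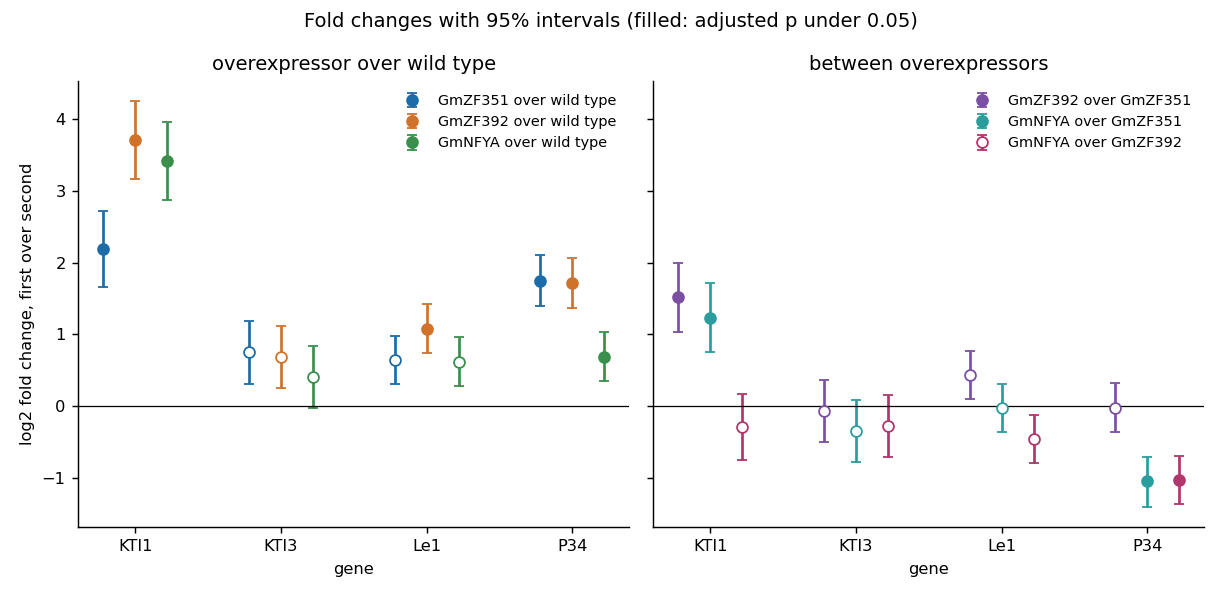
Log2 fold change of each gene with its 95% interval, for each overexpressor over the wild type (left) and between overexpressors (right), filled where the adjusted p is under 0.05. KTI1 (log2 2.19 to 3.71) is highest against the wild type, and P34 is the gene that was lower in the GmNFYA overexpressor than in both zinc finger overexpressors (log2 -1.05 and -1.03).

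By mean CPM as counted, the order of the genotypes for KTI1 was GmZF392, GmNFYA, GmZF351 and wild type from high to low, with the first 2 not separated. For KTI3 it was GmZF351, GmZF392, GmNFYA and wild type, and no neighbours passed the test. With the length trend removed GmZF392 (4146 CPM) came before GmZF351 (3978 CPM) for KTI3. For Le1 it was GmZF392, GmZF351, GmNFYA and wild type, with only GmZF392 and the wild type separated by the test, and with the trend removed GmNFYA (648 CPM) came before GmZF351 (581 CPM). For P34 it was GmZF351 and GmZF392, not separated, then GmNFYA, then the wild type.

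Over the 12 libraries the log2 CPM values of the 4 genes correlated pairwise, with Pearson's r between 0.65 (KTI1 and KTI3) and 0.87 (KTI1 and Le1). All pairs share the genotype differences, the depth and the length trend of a library, and these values are descriptions. With the mean of each genotype removed, KTI3 and P34 had the highest r (0.61), KTI1 and Le1 had 0.11, and Le1 and P34 had -0.24.

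Other genes whose log2 CPM followed each gene most closely over the 12 libraries were ranked by Pearson's r. For P34 they were Glyma.09G160500 (r = 0.992), Glyma.11G137300 (0.982) and Glyma.11G252800 (0.982). Glyma.09G160500 averaged 87.5 CPM in the GmZF351, 83.2 CPM in the GmZF392 and 39.7 CPM in the GmNFYA overexpressor and 22.6 CPM in the wild type. For KTI3 they were KTI-2 (Glyma.09G155500, r = 0.972), Glyma.07G088900 (0.967) and Glyma.19G052400 (0.962). For KTI1 they were NRP-A (Glyma.20G066100, r = 0.969), Glyma.05G175400 (0.961) and Glyma.10G118900 (0.957). For Le1 they were Glyma.16G200600 (r = 0.967), Glyma.09G042400 (0.962) and NAC018 (Glyma.06G157400, 0.956). With Spearman's rank correlation 1 of the 3 was again among the closest 3 for Le1 (Glyma.09G042400) and P34 (Glyma.11G252800), and 0 of 3 for KTI1 and KTI3.

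In the GmZF351, GmZF392 and GmNFYA overexpressors 1.13%, 1.67% and 0.966% of all tested genes rose, and 2.17%, 2.2% and 1.56% passed in either direction. Of 7 other protease inhibitor genes with a RefSeq symbol, 4 were tested. KTI-2, another Kunitz-type symbol, was the 1 that rose, in the GmZF351 overexpressor, at 134 ± 45.2 CPM there and 67 ± 7.91 CPM in the wild type (log2 1, adjusted p = 0.0453). In edgeR 0 of the 4 passed in the GmZF392 and 0 in the GmNFYA overexpressor, where 1 and 1 had an unadjusted p under 0.05 and the DESeq2 Wald test passed 1 and 0. The 1 at an unadjusted p under 0.05 was higher than the wild type with GmZF392 overexpressed and lower with GmNFYA overexpressed. KTI-3 (Glyma.16G211700), a gene distinct from KTI3, averaged 201 ± 61 CPM with GmZF351, 155 ± 31.9 CPM with GmZF392 and 144 ± 42 CPM with GmNFYA overexpressed and 105 ± 33.2 CPM in the wild type. CYSTATIN, for an inhibitor of cysteine proteases, averaged 52, 39.7 and 41.3 CPM in them and 39.1 CPM in the wild type. The list's median log2 fold change was 0.84, 0.63 and 0.23 in the 3 overexpressors, and that of all tested genes was 0.01, -0.01 and -0.01. BBI and BBI-2, which carry Bowman-Birk inhibitor symbols, had at most 4 fragments in any library. BBI-1, with a symbol of the same kind, was tested and was the gene that was lower with GmNFYA overexpressed. It averaged 0.425 ± 0.153 CPM there, on 5 to 11 fragments, and 0.946 ± 0.48 CPM in the wild type (log2 -1.16, adjusted p = 0.413). With GmZF351 and with GmZF392 overexpressed BBI-1 stood at log2 0.74 and 0.71 (adjusted p = 0.605 and 0.595).

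The gene next to KTI3 on its lower-coordinate side, 5508 bp away on the same strand, is KTI-1 (Glyma.08G341400), with at most 2 fragments in any library while KTI3 had at least 44742. The counting command names no option for multiply aligned reads, and whether reads of Kunitz genes were shared between copies was not tested. On the other side, 3487 bp away, Glyma.08G341600 fell in the GmNFYA overexpressor, at 8.79 ± 0.661 CPM there and 17.4 ± 0.475 CPM in the wild type (log2 -0.98, adjusted p = 0.00109). Of the 8 nearest neighbours of KTI1, KTI3, Le1 and P34, 5 were tested. Glyma.08G341600 was the 1 that passed against the wild type in any overexpressor. Taken singly, 2.17%, 2.2% and 1.56% of all tested genes passed in the GmZF351, GmZF392 and GmNFYA comparisons. The share passing in any of the 3 was not taken.

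Other seed protein genes differed by family. Among all tested genes 1.13%, 1.67% and 0.966% rose in the GmZF351, GmZF392 and GmNFYA overexpressors. Their median log2 fold changes were 0.01, -0.01 and -0.01. Of the 5 genes for 11S globulins, the legumin-type storage proteins, 3 rose in the GmZF351 overexpressor and 4 each in the GmZF392 and GmNFYA overexpressors, with median log2 fold changes of 2.31, 2.98 and 2.07. GY1 averaged 216 ± 76, 314 ± 71.8 and 142 ± 4.11 CPM in them and 34.6 ± 6.73 CPM in the wild type. Of the 4 genes for 7S globulins, the vicilin-type storage proteins, 2, 1 and 1 rose, among them CG-1 in each comparison, at 1740 ± 57.9, 2340 ± 113 and 1760 ± 56.8 CPM in the overexpressors and 591 ± 24 CPM in the wild type.

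The shares of all tested genes that rose were 1.13%, 1.67% and 0.966% in the GmZF351, GmZF392 and GmNFYA overexpressors. In either direction 2.17%, 2.2% and 1.56% passed. Of 2 tested oleosin genes, for oil body coat proteins, both rose in the GmZF351 overexpressor. In edgeR 0 passed in the GmZF392 and 0 in the GmNFYA overexpressor, where 2 and 1 had an unadjusted p under 0.05 and the DESeq2 Wald test passed 2 and 0. Of 6 tested lipoxygenase genes 3, 3 and 2 rose in the GmZF351, GmZF392 and GmNFYA overexpressors, and LOX9 fell in the GmNFYA overexpressor (log2 -0.73, adjusted p = 0.0194). Neither of the 2 genes for vacuolar processing enzymes, which cleave storage protein precursors, passed in edgeR against the wild type. In the GmZF351 overexpressor 1 of them had an unadjusted p under 0.05 and passed the DESeq2 Wald test, and in the other overexpressors 0 did. Of 7 genes for regulators of embryo maturation, named ABI3, ABI5, LEC1 and WRI1 with their copies, 0, 1 and 1 rose, with median log2 fold changes of 0.07, 0.14 and 0.15. In the GmZF351 overexpressor 1 had an unadjusted p under 0.05 and the DESeq2 Wald test passed 0. The 1 was ABI5, a bZIP factor of abscisic acid signalling, named after its values were seen (log2 0.97, adjusted p = 0.019 in the GmZF392 overexpressor and 0.91, adjusted p = 0.038 in the GmNFYA overexpressor).

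**Figure D4:**
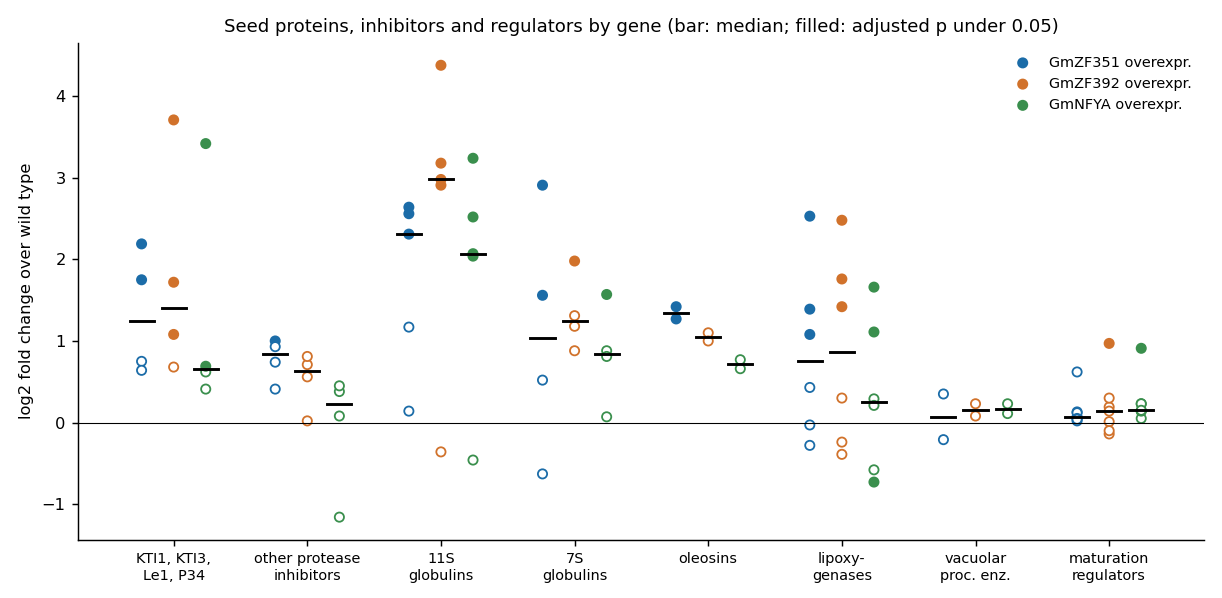
Log2 fold change over the wild type of each tested gene by family and overexpressor (points: genes, filled where the adjusted p is under 0.05; bars: median of the family). The 11S globulins have the highest medians (2.31, 2.98 and 2.07), the medians of the vacuolar processing enzymes and maturation regulators lie near 0, and KTI1 and P34 are the filled points common to all 3 overexpressors among KTI1, KTI3, Le1 and P34.

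Some genes listed as markers of seed coat, leaf or vegetative storage passed the test against the wild type. Of all tested genes, 2.17%, 2.2% and 1.56% passed in the GmZF351, GmZF392 and GmNFYA overexpressors. All 8 genes listed as seed coat markers were detected. They were for anthocyanidin and leucoanthocyanidin reductases, dihydroflavonol reductases, anthocyanidin synthases and the hydrophobic seed protein HPS. Their summed level was 1564 to 1769 CPM in the GmZF351, 1587 to 1869 CPM in the GmZF392 and 1575 to 2019 CPM in the GmNFYA overexpressor. In the wild type it was 1965 to 2266 CPM. The sums of both zinc finger overexpressors lay below the wild type, and that of the GmNFYA overexpressor overlapped it. HPS, part of these sums, stood at 345 to 410 CPM with GmNFYA overexpressed and 184 to 219 CPM in the wild type. LAR1, also part of these sums, stood at 21.5 to 27.8 CPM with GmZF392 overexpressed and at 161 to 189 CPM in the wild type. That difference was larger than the gap between the highest GmZF392 sum (1869 CPM) and the lowest wild-type sum (1965 CPM). The lower GmZF392 sums therefore do not show a fall of the list as a whole. Sums without HPS or LAR1 were not taken. In edgeR LAR1 fell in all 3 overexpressors and HPS in the GmZF351 overexpressor, 2, 1 and 1 of the 7 tested. LAR1 averaged 21.3, 24.9 and 21.5 CPM in the 3 overexpressors and 180 CPM in the wild type. Its log2 fold changes were -3.08, -2.85 and -3.06 (adjusted p = 1.4e-07, 2.4e-07 and 1.1e-07). Of the 7, 2, 4 and 3 had an unadjusted p under 0.05, with 0, 1 and 1 of these higher. DESeq2 passed 2, 1 and 2, with 0, 0 and 1 of these higher. HPS averaged 99.1 ± 31.7 CPM in the GmZF351, 303 ± 68.4 CPM in the GmZF392 and 370 ± 35.2 CPM in the GmNFYA overexpressor and 203 ± 17.2 CPM in the wild type, and it did not pass in the GmZF392 (adjusted p = 0.278) or GmNFYA overexpressor (0.0769). Of 19 leaf symbols in RefSeq 4 could be paired with a gene of the table, and these 4 were detected, at a sum of 1220 to 1762, 1280 to 1702 and 1151 to 1735 CPM in the 3 overexpressors and 1664 to 2047 CPM in the wild type. The sums of all 3 overexpressors overlapped the wild type. Of the leaf genes, LHCB1-7 fell in the GmNFYA overexpressor (log2 -1.1, adjusted p = 0.0192), and 0 passed in the GmZF351 and 0 in the GmZF392 overexpressor (1 and 0 at an unadjusted p under 0.05, 0 and 0 by DESeq2). VSPA, for a vegetative storage protein, stood at 28.1 to 33.1, 55 to 68.6 and 109 to 124 CPM in the 3 overexpressors and 95.5 to 101 CPM in the wild type. It fell in the GmZF351 (log2 -1.73, adjusted p = 8.9e-06) and GmZF392 overexpressors (log2 -0.68, adjusted p = 0.0111). In the GmNFYA overexpressor VSPA did not pass (log2 0.25, adjusted p = 0.482). The part of these differences in the levels of KTI1, KTI3, Le1 and P34 was not tested. Which tissues the RNA of the listed genes came from was not tested either. No marker of any of these lists was at 0 in all libraries.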

How the data were processed

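Per the file headers, the authors deposited raw counts per gene from featureCounts 2.0.1 (paired-end fragments, exons summed by gene, annotation Gmax_508_Wm82.a4.v1), with no option recorded for strand, multiply aligned reads or overlapping genes. The deposited table also gives an exon length, another value, used here for FPKM and the length trend. The submitters' processing notes name HISAT2 and DESeq2 without versions. All 12 libraries were fitted together in R 4.3.3 with edgeR 4.0.16 (TMM, robust quasi-likelihood, filterByExpr at min.count 10 and min.total.count 15, 1 coefficient per genotype). Log2 CPM for correlations used a prior count of 2. The length trend is a lowess curve with a span of 0.3. An exact test of 3 against 3 libraries cannot give a p below 0.1. No libraries were identical. The edgeR step was tested on simulated data.

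RefSeq symbols (Glycine_max_v4.0) were assigned where spans overlapped by at least 50% of their union, which paired 38292 of 47095 genes (81.3%), 2203 with a symbol. Lists are symbol families, without the cysteine protease symbols that start with CYSP. Families by protein similarity and sequences were not used here. KTI1, KTI3, Le1, P34 and the lists were chosen with earlier results of these data known. Named genes are these 4, up to 3 per list with the highest mean level, the 3 closest by r, and, after their values were seen, ABI5, LAR1, HPS, LHCB1-7, BBI, BBI-1, BBI-2, KTI-1 and Glyma.08G341600. The GmZF351 and GmZF392 loci rest on knowledge of the study. Alternatives were DESeq2 1.42.0, its size factors, library totals, no filter, 2 genotypes only, a replicate block, exon-length offsets and leaving out each library.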

Additional observations from a re-analysis of the deposited data

How the results depend on the processing

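Of 384 adjusted p-values of KTI1, KTI3, Le1 and P34 under the alternatives, 349 kept their side of the threshold, 15 were lost and 20 were gained. No called difference changed sign, but 3 that did not pass did under some of 13 alternatives each: KTI3 (log2 -0.07; 5 alternatives, 0.02 to 0.07) and P34 (-0.02; 2, 0.03 to 0.04) for GmZF392 against GmZF351, and Le1 (-0.03; 4, 0.02 to 0.16) for GmNFYA against GmZF351. With the DESeq2 test, KTI3 passed in the GmZF351 (adjusted p = 0.00672) and GmZF392 (0.0222) overexpressors against the wild type and over all genotypes (0.0144), and Le1 in the GmZF351 (3.5e-04) and GmNFYA (9.0e-04) overexpressors, so that 4 of 4 genes passed for GmZF351. With exon-length offsets KTI3 passed in the GmZF351 (0.00259), GmZF392 (9.9e-04) and GmNFYA (0.0103) overexpressors and over all genotypes (0.0025), and Le1 in the GmZF351 (0.0241) and GmNFYA (0.00682) overexpressors, making 4 of 4 in both. With a replicate block and exon-length offsets together the values were 0.00505, 0.00225, 0.0172 and 0.00556 for KTI3 and 0.0382 and 0.013 for Le1, again 4 of 4. DESeq2 size factors gave 0.0481 for Le1 in the GmZF351 overexpressor. P34 in the GmNFYA overexpressor against the wild type was lost with no filter (0.058), with only 2 genotypes fitted (0.0818) and with a replicate block (0.0546), each leaving 1 gene of 4, and under 8 of 13 alternatives in all. With only 2 genotypes fitted, KTI1 for GmZF392 against GmZF351 (0.0545, leaving 0 genes) and P34 for GmNFYA against GmZF351 (0.0742, leaving 1) were lost too. Leaving out 1 library at a time gave, in the GmZF351 overexpressor against the wild type, 0.045 to 0.28 for KTI3, 0.0179 to 0.236 for Le1 and 2 to 4 genes; in the GmNFYA overexpressor 0.0227 to 0.211 for P34 and 1 to 2 genes; for GmZF392 against GmZF351 0.00217 to 0.0615 for KTI1 and 0 to 1 genes; and for GmNFYA against GmZF351 0.00601 to 0.0964 for KTI1 and 1 to 2 genes. Without TMM factors Le1 in the GmZF392 overexpressor averaged 850 CPM. Deviations of same-numbered libraries from their genotype means correlated at r from -0.5 to 0.42, and 7 of 18 pairs exceeded 0.1. In 6 of the 18 the first library correlated best with its own number among the 3 of the other genotype. With 3 libraries per genotype these values do not exclude pairing. Counts over all genes moved by more than 1.5 times: against the wild type 744, 752 and 536 genes passed for GmZF351, GmZF392 and GmNFYA, from 368, 448 and 300 to 1331 (exon-length offsets), 1188 (exon-length offsets) and 954 (DESeq2); between overexpressors 137, 376 and 364 passed, from 64, 123 and 198 to 341, 905 and 662 (DESeq2), and over all genotypes 1152, from 745 to 2252 (DESeq2). Leaving out 1 library moved them that far for GmZF351 against the wild type with wild-type library 1, 2 or 3 or GmZF351 library 3 left out (392 to 442 genes), for GmZF392 with wild-type library 2 or 3 (448 and 477), for GmNFYA with wild-type library 1, 2 or 3 or GmNFYA library 2 or 3 (300 to 355), and over all genotypes with wild-type library 2 (745). Between overexpressors it did so for GmZF351 library 1 or 3 and GmZF392 library 1 or 3 (64 to 90), for GmZF351 library 2 or 3 and any GmNFYA library (163 to 224), and for GmZF392 library 3 and GmNFYA library 2 or 3 (198 to 235). The causes were not tested. Intervals and counts cover these libraries only, and KTI1 in the wild type rests on at most 73 fragments.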
